A study of Mus musculus with 12 samples.

Results

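Helper T cell cytokines are the secreted proteins by which CD4+ T cells instruct other cells, and here 10 of them were followed in regulatory T (Treg) cells: Il2, Il3, Csf2, Il4, Il13, Il5, Il17a, Il17f, Il22 and Il21. Each was taken as the transcript cluster (the array's set of probes for 1 transcript unit) whose only symbol was that gene, and as the one with the higher mean where a gene had 2, which happened for Csf2 alone. All 10 were found among 22180 genes named this way, on arrays with 41345 transcript clusters. Expression was measured on Affymetrix mouse arrays, 3 per genotype and 12 in all, in Treg cells of spleen and lymph nodes that had been gated on CD4 and on the YFP that reports the Cre. Foxp3Cre/+Lkb1f/f (labelled female) was set against Foxp3Cre/+ (labelled female), and Foxp3CreTgfbr2 f/f (labelled male) against Foxp3Cre (labelled male). All 4 genotypes carry Cre fused to YFP at the Foxp3 locus, so the controls carry it too. Lkb1f/f and Tgfbr2 f/f are floxed alleles that this Cre removes in cells using the Foxp3 allele that holds it. Foxp3 is X-linked, so a Foxp3Cre/+ female also keeps Treg cells that use the intact Foxp3 allele and have no Cre. The cells were sorted without stimulation as far as the sources state. Arrays of a genotype are labelled as biological replicates. No source used here gives the age of the mice, or says whether an array holds 1 mouse or a pool.

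Naive CD4+ T cells that meet antigen take up 1 of several helper programmes. T helper type 2 cells secrete IL-4, IL-5 and IL-13 in allergy and worm infection, T helper type 17 cells secrete IL-17A, IL-17F and IL-22 at epithelial surfaces, follicular helper cells secrete IL-21 for B cells, and IL-2, IL-3 and GM-CSF (the Csf2 product) are growth factors made soon after activation. These genes are transcribed after T cell receptor signalling, when factors of the nuclear factor of activated T cells (NFAT) family enter the nucleus, and Foxp3 is known to repress Il2 in Treg cells, which consume IL-2 made by others. Several of the genes lie side by side in the mouse genome. In the RefSeq annotation Il4 and Il13 are neighbours on chromosome 11 with Rad50 between Il13 and Il5, Csf2 and Il3 are neighbours on the same chromosome, Il2 and Il21 on chromosome 3, Il17a and Il17f on chromosome 1, and Il22 and its near-identical copy Iltifb on chromosome 10.

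The sequences before 3 of these genes are shown because NFAT genes were among the factors measured in these cells and NFAT binds the letters GGAAA. Each is the 250 bases before the RefSeq start (assembly GRCm38.p6), 5′ to 3′ on the strand of the gene, with every GGAAA, or TTTCC where it lies on the other strand, in capitals. The Il4 window, chr11:53618666-53618915 on the minus strand, is that of the farther upstream of 2 starts listed and holds 5 matches. The Il13 window, chr11:53634703-53634952 on the minus strand, holds 4 matches, and the Il2 window, chr3:37125955-37126204 on the minus strand, holds 2.
Il4: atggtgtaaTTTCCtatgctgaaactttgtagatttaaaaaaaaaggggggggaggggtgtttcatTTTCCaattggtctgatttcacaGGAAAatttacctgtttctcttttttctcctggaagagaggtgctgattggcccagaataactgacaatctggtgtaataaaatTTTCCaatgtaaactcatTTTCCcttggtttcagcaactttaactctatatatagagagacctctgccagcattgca
Il13: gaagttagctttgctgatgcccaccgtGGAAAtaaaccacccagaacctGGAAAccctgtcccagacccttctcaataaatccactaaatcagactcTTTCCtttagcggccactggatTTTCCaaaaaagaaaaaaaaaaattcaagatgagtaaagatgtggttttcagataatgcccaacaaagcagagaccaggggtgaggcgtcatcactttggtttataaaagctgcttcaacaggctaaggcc
Il2: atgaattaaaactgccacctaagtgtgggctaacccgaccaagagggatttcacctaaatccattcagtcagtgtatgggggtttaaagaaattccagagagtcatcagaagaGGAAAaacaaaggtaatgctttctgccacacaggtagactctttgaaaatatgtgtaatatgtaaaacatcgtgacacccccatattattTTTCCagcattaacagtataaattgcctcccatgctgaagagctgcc
The motif was in 9 of the 11 windows listed for the 10 genes, and in 55.57% of the 32851 windows of that length in the RefSeq table. The windows of Il17a and of the second Il4 start hold none. A match is a string of letters and not a measured binding site, and 21.38% of all windows hold at least 2 matches and 1.59% at least 4.

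Values are log2 values minus the median of their array. The background of each array was read from 1405 transcript clusters of olfactory and vomeronasal receptors, sensory genes not known to be used by T cells, and its limit was set at their 95th percentile. This limit lay between -0.07 and 0.94, and it was highest on Foxp3Cre/+Lkb1f/f replicates 1 and 2 (0.75 and 0.76) and Foxp3Cre/+ replicate 1 (0.94). Between 34.9% and 54.6% of the named genes exceeded it on an array, 32.3% did so on all 12 arrays and 40.1% on none. Before centring, 8 arrays had medians of 5.48 to 5.60 (lower-intensity arrays, 2 per genotype) and 4 had medians of 6.30 to 6.33 (higher-intensity arrays, 1 per genotype). These 4 arrays also went against their labelled sex. The arrays labelled Foxp3Cre/+Lkb1f/f replicate 3 and Foxp3Cre/+ replicate 3 (female) had Xist at -1.24 and -0.999 and the Y-linked Eif2s3y at 3.00 and 3.11, whereas those labelled Foxp3CreTgfbr2 f/f replicate 1 and Foxp3Cre replicate 3 (male) had Xist at 4.70 and 4.54 and Eif2s3y at -2.38 and -1.83. Foxp3 is X-linked, so cells of a male cannot be heterozygous Foxp3Cre/+, and the genotype labels of these replicate 3 arrays labelled female are in doubt too. Genotype names here are those of the labels, and no array was moved. Means, SDs, intervals and p-values with n = 3 per genotype hold only under these labels. Differences between genotypes for the cytokines above the limit and for genes separated on every array are also given for the 8 lower-intensity arrays alone. These leave out all 4. The sorted cells carried Treg markers on every array, with Foxp3 at 5.59 to 5.88, and all 11 measured T and Treg markers exceeded the limit on all 12 arrays. Stk11, the gene of Lkb1, was at 2.68, 2.33 and 3.27 on the 3 Foxp3Cre/+Lkb1f/f arrays and at 2.96, 2.90 and 3.15 on the 3 Foxp3Cre/+ arrays. Tgfbr2 was at 3.55, 2.51 and 2.31 on the 3 Foxp3CreTgfbr2 f/f arrays and at 3.04, 2.71 and 3.48 on the 3 Foxp3Cre arrays. On the lower-intensity arrays each targeted gene was below all 3 control arrays of its comparison, whereas the higher-intensity deletion arrays (Stk11 3.27 and Tgfbr2 3.55) were above all 3. In the other pair of genotypes, the targeted gene was lower on the higher-intensity deletion array than on the higher-intensity control array, with Tgfbr2 at 2.71 on Foxp3Cre/+Lkb1f/f replicate 3 and 3.25 on Foxp3Cre/+ replicate 3, and Stk11 at 2.78 on Foxp3CreTgfbr2 f/f replicate 1 and 3.05 on Foxp3Cre replicate 3. The targeted genes thus did not bear out the labels of the higher-intensity deletion arrays, and whether arrays were exchanged between the experiments was not tested. No source used here names the exons removed, and probes outside them would still read the transcript.

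Most of the 10 cytokines were at background in these Treg cells. Of the 120 values (10 genes on 12 arrays) 110 were at or below the limit of their array. The 10 values above it belonged to Il4 (5 arrays), Il13 (3 arrays) and Il17f (2 arrays), and the other 7 genes exceeded it on no array. No cytokine exceeded it on all 3 arrays of a genotype. By genotype the values above the limit numbered 0 of 30 on the Foxp3Cre/+Lkb1f/f arrays and 4 of 30 on the Foxp3Cre/+ arrays. They numbered 2 of 30 on the Foxp3CreTgfbr2 f/f arrays and 4 of 30 on the Foxp3Cre arrays. Of all named genes, 37.6% to 49.4% exceeded it on the Foxp3Cre/+Lkb1f/f arrays and 34.9% to 54.1% on the Foxp3Cre/+ arrays. These shares were 48.5% to 54.6% on the Foxp3CreTgfbr2 f/f arrays and 48.0% to 53.8% on the Foxp3Cre arrays. They were 49.4% to 54.6% on the higher-intensity arrays and 34.9% to 51.6% on the lower-intensity arrays. How far the counts reflect the limit of each array was not tested. By intensity the cytokine values above it numbered 6 of 40 on the higher-intensity arrays and 4 of 80 on the lower-intensity arrays. All 4 of these were values of Il4, so Il13 and Il17f exceeded the limit only on arrays that went against their labelled sex. With the limit at the 99th percentile of the receptors, 0 of the 120 values exceeded it, and at the 90th percentile 35 did, from Il4, Il13, Il17f, Il17a and Il5. The limit is itself passed by 5% of receptor clusters on each array by its definition, and 5.62% of the receptor clusters passed it on at least 5 arrays, as Il4 did. A low value in a bulk sample can mean fewer cells that use a gene or less RNA in each, and these cannot be told apart.

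**Figure D1:**
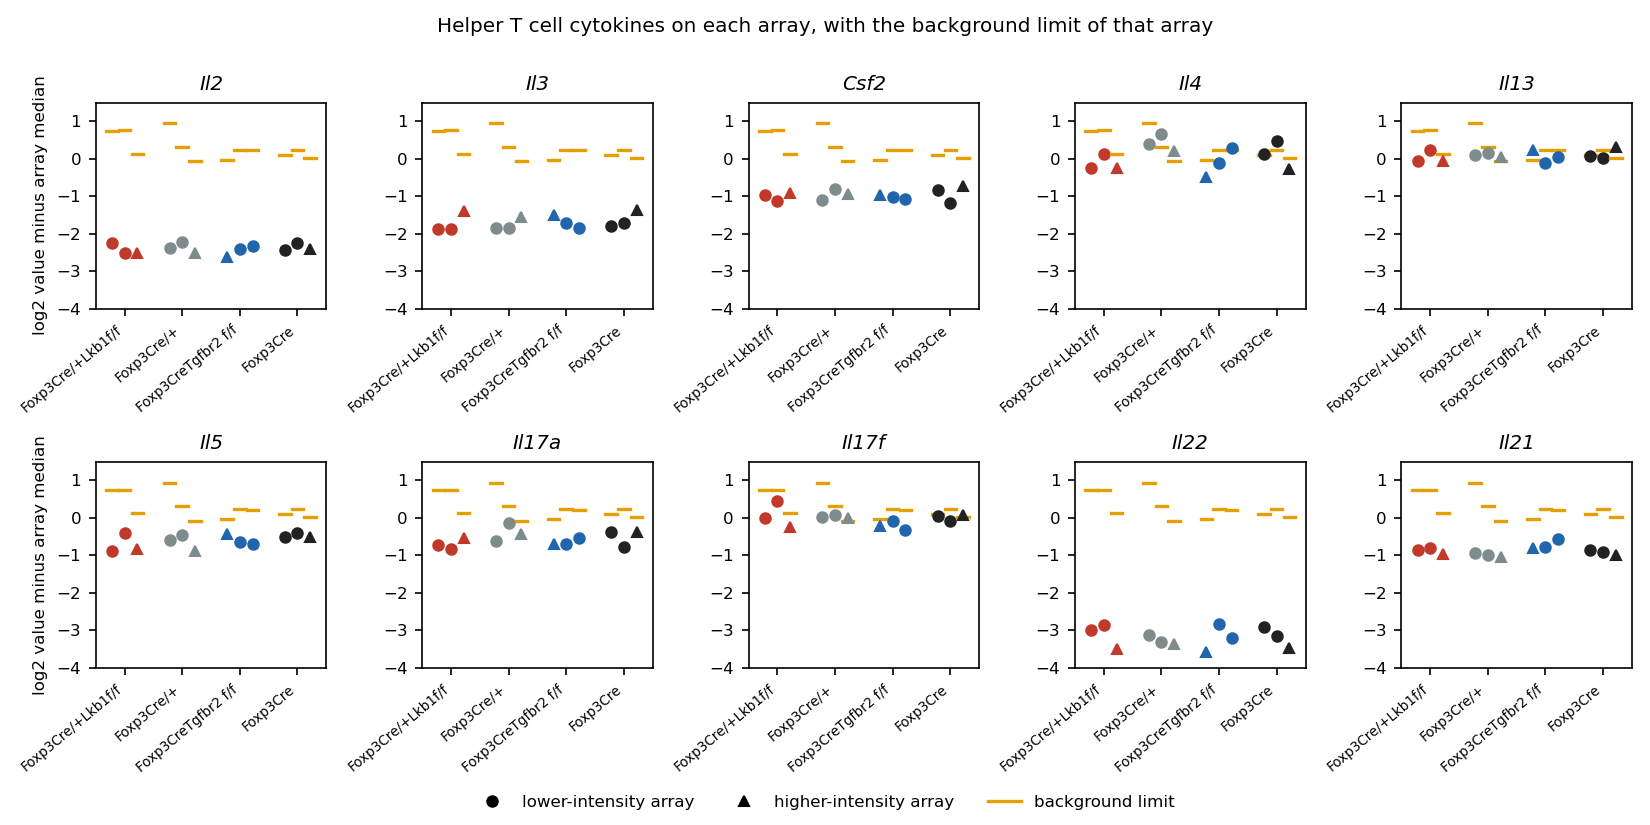
The log2 value minus the array median (vertical axis) of each cytokine on each of the 12 arrays, by labelled genotype, with circles for lower-intensity and triangles for higher-intensity arrays and a short bar at the background limit of that array. Il4, Il13 and Il17f lie around the bars, on 5, 3 and 2 arrays above them, and the other 7 genes lie below the bars on all 12 arrays.

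Among the early growth factors, Il2, the gene of the main T cell growth factor, lay between -2.63 and -2.23 over the 12 arrays. It stood above 22.5% to 44.6% of the receptor clusters of the same array, within the lower part of the background. Il3, whose product drives mast cells and basophils, lay between -1.89 and -1.37, above 40.2% to 75.7% of the receptor clusters. Csf2, whose product GM-CSF acts on myeloid cells, lay between -1.19 and -0.72, above 65.4% to 87.2% of them. The second Csf2 transcript cluster also exceeded the limit on no array, and averaged -1.66 ± 0.55 in Foxp3Cre/+Lkb1f/f and -1.63 ± 0.47 in Foxp3Cre/+, and -1.49 ± 0.76 in Foxp3CreTgfbr2 f/f and -1.65 ± 0.71 in Foxp3Cre (SD, n = 3 each). For these 3 genes the arrays give a bound on the level and no fold between genotypes.

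Among the type 2 cytokines, the product of Il4 directs B cells to IgE and T cells to the type 2 programme. Il4 varied most of the 10 across the arrays, with a range of 1.16. The median range over the 12 arrays was 1.00 for the receptor clusters and 0.89 for all clusters. The Il4 values were -0.26, 0.12 and -0.25 on Foxp3Cre/+Lkb1f/f replicates 1, 2 and 3, against 0.39, 0.67 and 0.21 on Foxp3Cre/+ replicates 1, 2 and 3. They were -0.49, -0.11 and 0.28 on Foxp3CreTgfbr2 f/f replicates 1, 2 and 3, against 0.13, 0.46 and -0.27 on Foxp3Cre replicates 1, 2 and 3. The 3 Foxp3Cre/+Lkb1f/f arrays were all lower than the 3 Foxp3Cre/+ arrays, while the Foxp3CreTgfbr2 f/f and Foxp3Cre arrays overlapped. The lower-intensity arrays alone are part of the same arrays, so their separation follows from this one and is no further check. Over 3 arrays each the separation rests on the labels of the higher-intensity arrays. It would not hold if these were exchanged between the experiments, since Foxp3Cre replicate 3 (-0.27) lay below both lower-intensity Foxp3Cre/+Lkb1f/f arrays. Il4 exceeded its array's limit on none of the Foxp3Cre/+Lkb1f/f arrays and on Foxp3Cre/+ replicates 2 and 3, and on Foxp3CreTgfbr2 f/f replicate 3 and Foxp3Cre replicates 1 and 2. It was above 83.6% to 96.9% of the receptor clusters. Foxp3Cre/+ replicate 1 had the third highest Il4 value and yet lay under its own limit of 0.94.

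Il13, whose product acts on epithelium and smooth muscle, was nearly level over the arrays, with a range of 0.41. Its values were -0.06, 0.24 and -0.07 on Foxp3Cre/+Lkb1f/f replicates 1, 2 and 3, against 0.09, 0.14 and 0.03 on Foxp3Cre/+ replicates 1, 2 and 3. They were 0.23, -0.11 and 0.04 on Foxp3CreTgfbr2 f/f replicates 1, 2 and 3, against 0.06, 0.01 and 0.30 on Foxp3Cre replicates 1, 2 and 3. Both pairs of genotypes overlapped. The 3 arrays on which Il13 exceeded the limit, Foxp3Cre/+ replicate 3, Foxp3CreTgfbr2 f/f replicate 1 and Foxp3Cre replicate 3, were all higher-intensity arrays. Il5, the growth factor of eosinophils, lay between -0.89 and -0.41, above 70.0% to 91.2% of the receptor clusters and under the limit on every array.

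Among the type 17 cytokines, Il17a, whose product recruits neutrophils, lay between -0.83 and -0.13 and under the limit on all 12 arrays, above 74.2% to 92.0% of the receptor clusters. Il17f, its relative with the same receptor chains, was at -0.0018, 0.46 and -0.25 on Foxp3Cre/+Lkb1f/f replicates 1, 2 and 3, against 0.02, 0.09 and 0.01 on Foxp3Cre/+ replicates 1, 2 and 3. It was at -0.23, -0.08 and -0.32 on Foxp3CreTgfbr2 f/f replicates 1, 2 and 3, against 0.06, -0.09 and 0.08 on Foxp3Cre replicates 1, 2 and 3. The highest value, on Foxp3Cre/+Lkb1f/f replicate 2, was under that array's limit of 0.76, and the 2 arrays above their limit were the higher-intensity Foxp3Cre/+ replicate 3 and Foxp3Cre replicate 3. Il22, which acts on epithelial cells, lay between -3.58 and -2.82, above 0% to 9.82% of the receptor clusters. Its near-identical copy Iltifb, with which probes may be shared, was under the limit on all 12 arrays too, so the Il22 values are uncertain between these 2 genes.

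Il21, the follicular helper cytokine, lay between -1.05 and -0.56 and exceeded the limit on no array. Its values were -0.81, -0.79 and -0.56 on Foxp3CreTgfbr2 f/f replicates 1, 2 and 3. They were -0.86, -0.90 and -0.99 on Foxp3Cre replicates 1, 2 and 3. The arrays labelled Foxp3CreTgfbr2 f/f were thus all higher, the 2 lower-intensity ones necessarily so. This too rests on the labels of the higher-intensity arrays and would not hold if they were exchanged between the experiments, since Foxp3Cre/+Lkb1f/f replicate 3 was at -0.96. The Foxp3Cre/+Lkb1f/f arrays (-0.87, -0.81 and -0.96) and the Foxp3Cre/+ arrays (-0.92, -0.98 and -1.05) overlapped. As every value was at background, no fold is given.

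**Figure D2:**
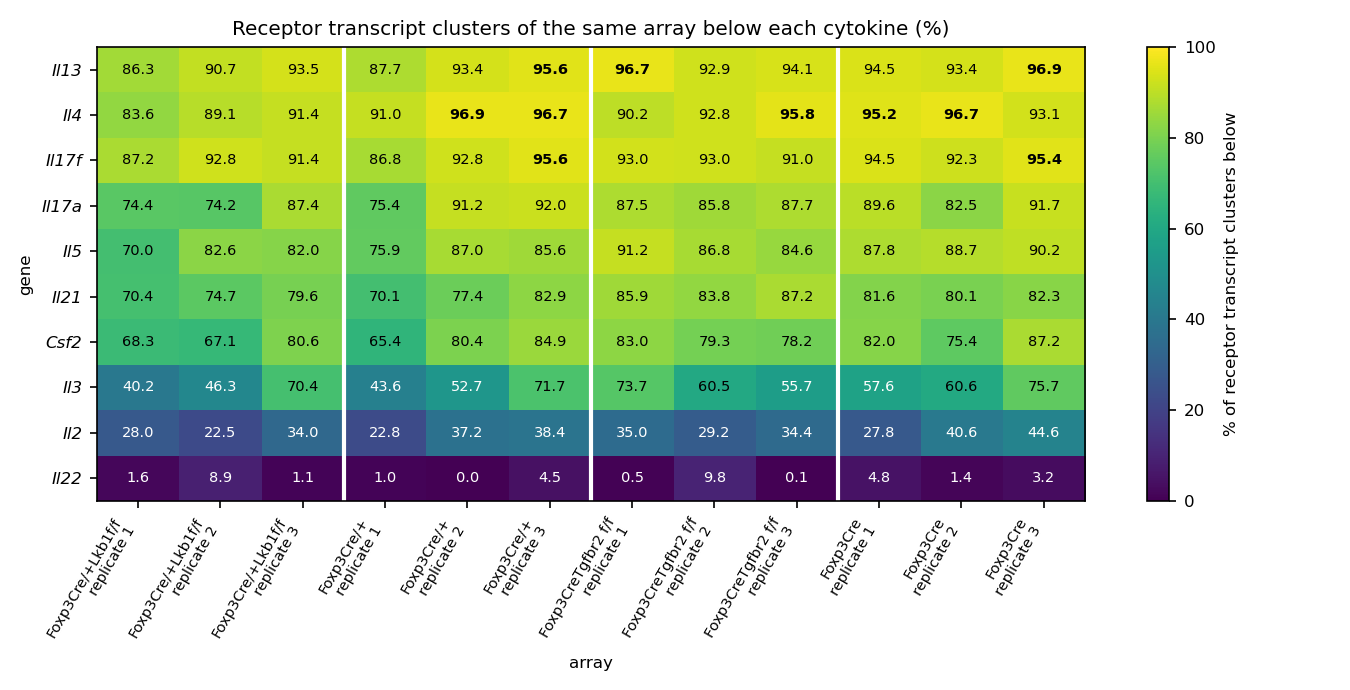
The percentage of the 1405 receptor clusters of the same array (columns, by labelled genotype and replicate) that lay below each cytokine (rows), with values over 95 in bold. Il13, Il4 and Il17f fill the top rows, and Il22 stood above 0% to 9.82% of the receptor clusters.

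In the Lkb1 comparison none of the 10 cytokines passed limma's test once p-values were adjusted (Benjamini-Hochberg, all transcript clusters), and 0% of the 41345 clusters did (462 had an unadjusted p under 0.05, and the methods' t-test gave 675 unadjusted and 0 adjusted). Il4 averaged -0.13 ± 0.21 on the Foxp3Cre/+Lkb1f/f arrays and 0.43 ± 0.23 on the Foxp3Cre/+ arrays (SD, n = 3 each). The difference was -0.55 on the log2 scale (SE 0.20, 95% confidence interval -1.04 to -0.07, limma's unadjusted p = 0.0298, adjusted p = 1.00). A two-sided exact permutation test gave p = 0.10, which is the lowest p this design can reach. In the lower-intensity arrays alone, which leave out the arrays that went against their labelled sex, the difference was -0.60, and between the 2 higher-intensity arrays it was -0.46. Since no Foxp3Cre/+Lkb1f/f array exceeded its limit, the level there is only a bound, and with those arrays set to their limits the Foxp3Cre/+ mean lay 0.12 below the bound (-0.12), so no fold can be given. Il13 differed by -0.05 (SE 0.17, interval -0.46 to 0.35) and Il17f by 0.03 (SE 0.22, interval -0.49 to 0.55), and neither was above its limit on a Foxp3Cre/+Lkb1f/f array. On the lower-intensity arrays alone these differences were -0.0249 for Il13 and 0.18 for Il17f.

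Counted without a test, 1 of the 10 cytokines (Il4) was lower on every Foxp3Cre/+Lkb1f/f array than on every Foxp3Cre/+ array, under the labels as given, as were 2.05% of all transcript clusters, and 0 of 10 were higher on every array, against 1.76% of all clusters. The median difference of the 10 was -0.05, beside -0.01 over all clusters. All 10 measured macrophage markers had lower means on the Foxp3Cre/+Lkb1f/f arrays, none past the test, and Foxp3Cre/+ replicate 2, with the highest Il4, also had the highest macrophage levels. The summed macrophage marker level was 4.38 to 5.21 (log2) on the Foxp3Cre/+Lkb1f/f arrays and 4.18 to 7.51 on the Foxp3Cre/+ arrays. The part of these cells in the Il4 difference was not tested, and without Foxp3Cre/+ replicate 2 it was -0.43 (limma's unadjusted p = 0.11). Mast cells and basophils are known sources of IL-4, and 8 of their 9 markers were at background on all 12 arrays, Kit being the exception, with the basophil protease Mcpt8 between -1.35 and -0.65. Their summed level was 1.97 to 2.96 on the Foxp3Cre/+Lkb1f/f arrays and 2.03 to 2.64 on the Foxp3Cre/+ arrays. Il4 itself exceeded the limit on only 5 of the 12 arrays, and the part of mast cells and basophils in its difference was not tested. B cell markers, all 6 with lower means in Foxp3Cre/+Lkb1f/f and none past the test, summed to 2.31 to 3.43 on the Foxp3Cre/+Lkb1f/f arrays and 2.63 to 4.42 on the Foxp3Cre/+ arrays, with Foxp3Cre/+ replicate 3 highest. Natural killer cell markers summed to 2.48 to 2.85 on the Foxp3Cre/+Lkb1f/f arrays and 2.26 to 3.31 on the Foxp3Cre/+ arrays.

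In the Tgfbr2 comparison none of the 10 cytokines passed limma's test either, and 0% of the 41345 transcript clusters did (706 at an unadjusted p under 0.05, and 902 unadjusted and 0 adjusted by the methods' t-test). Il4 averaged -0.11 ± 0.39 on the Foxp3CreTgfbr2 f/f arrays and 0.11 ± 0.37 on the Foxp3Cre arrays, a difference of -0.21 (SE 0.26, 95% confidence interval -0.84 to 0.41, adjusted p = 1.00). Within the lower-intensity arrays it was also -0.21. Il13 differed by -0.07 (SE 0.16, interval -0.44 to 0.30), and Il17f by -0.22 (SE 0.14, interval -0.55 to 0.10), with no Foxp3CreTgfbr2 f/f array above its limit for Il17f. On the lower-intensity arrays alone they differed by -0.07 and -0.185. These intervals include 0, and that of Il4 leaves room for differences of measured values of up to 0.84 in size. Il4 exceeded its limit on 1 of 3 Foxp3CreTgfbr2 f/f arrays and 2 of 3 Foxp3Cre arrays. The intervals therefore set no upper bound on the difference in expression. Among the 10, Il21 was higher on every Foxp3CreTgfbr2 f/f array than on every Foxp3Cre array, as were 2.81% of all transcript clusters, and 0 of 10 were lower on every array, against 2.13%. The median difference of the 10 was -0.10, beside 0.01 over all clusters. Summed macrophage markers were at 3.40 to 3.93 on the Foxp3CreTgfbr2 f/f arrays and 3.48 to 4.0 on the Foxp3Cre arrays.

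**Figure D3:**
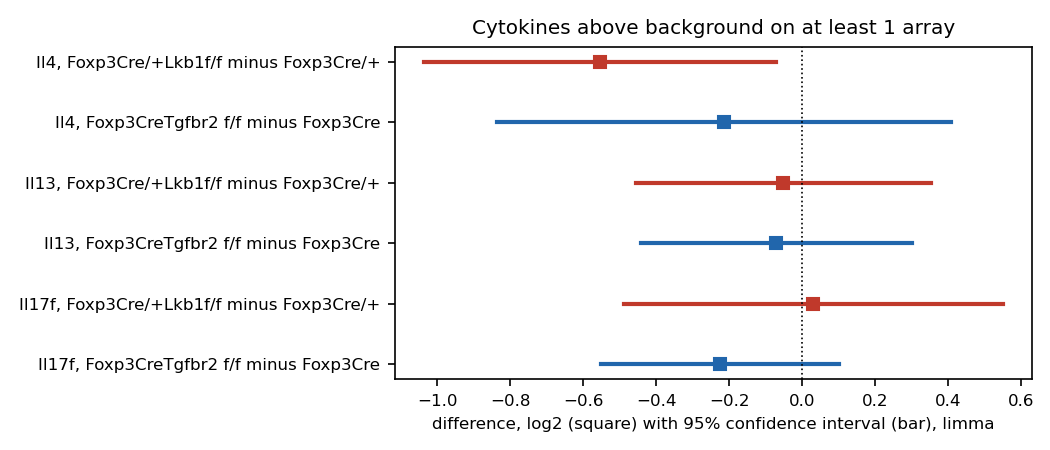
Differences of measured log2 values (deletion minus its control, squares) with 95% confidence intervals from limma (bars), for the 3 cytokines above the limit on at least 1 array, n = 3 arrays per genotype. The interval of Il4 in the Lkb1 comparison runs between -1.04 and -0.07 and the other 5 include 0.

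Whether the 2 deletions differed was tested over all 12 arrays. The Il4 difference of the Lkb1 comparison minus that of the Tgfbr2 comparison was -0.34 (SE 0.34, 95% confidence interval -1.09 to 0.41, limma's adjusted p = 1.00). For Il13 this was 0.02 (SE 0.21, interval -0.45 to 0.49) and for Il17f 0.26 (SE 0.25, interval -0.29 to 0.80). On the lower-intensity arrays alone it was -0.39 for Il4, 0.0452 for Il13 and 0.36 for Il17f. None of the 10 cytokines and 0% of all transcript clusters passed (406 clusters had an unadjusted p under 0.05), so no cytokine was shown to differ between the deletions.

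Transcription factors of the helper programmes were mostly above background. Of 24 measured, 21 exceeded the limit on all 12 arrays and the other 3 on some. Stat3, which carries IL-6 and IL-21 signals, averaged 5.06 over the arrays, Stat6, which carries the IL-4 signal, 4.01, Stat4, which carries the IL-12 signal, 4.52, and the NFAT gene Nfatc3 4.45, and Ikzf1 (4.97) and Ikzf3 (3.96) of the Ikaros family were also above the limit on all 12 arrays. None of the 24 passed limma's test in either comparison. In the Lkb1 comparison 3 of the 24 were lower on every Foxp3Cre/+Lkb1f/f array (Ahr, Irf4 and Prdm1) and 1 was higher (Tbx21). Of all clusters 2.05% were lower and 1.76% higher in this way. In the Tgfbr2 comparison 1 was lower (Ahr) and none higher, beside 2.13% and 2.81% of all clusters. Over 3 arrays each, these separations are those under the labels as given. Whether each would hold with the higher-intensity arrays exchanged between the experiments was not tested. Ahr, the aryl hydrocarbon receptor, which is needed for Il22 in type 17 cells, averaged 1.18 ± 0.98 in Foxp3Cre/+Lkb1f/f and 2.70 ± 0.29 in Foxp3Cre/+, and 0.55 ± 0.39 in Foxp3CreTgfbr2 f/f and 2.23 ± 0.56 in Foxp3Cre (SD, n = 3 each). Its differences were -1.51 (SE 0.47) and -1.68 (SE 0.32), each with an adjusted p of 1.00. Irf4, a factor of activated T cells, averaged 2.60 ± 0.23 in Foxp3Cre/+Lkb1f/f and 3.07 ± 0.16 in Foxp3Cre/+, and Prdm1, which encodes Blimp-1, a repressor of Il2, averaged 1.39 ± 0.98 in Foxp3Cre/+Lkb1f/f and 2.44 ± 0.13 in Foxp3Cre/+. Tbx21, the type 1 factor, averaged 1.56 ± 0.30 in Foxp3Cre/+Lkb1f/f and 1.07 ± 0.18 in Foxp3Cre/+. On the lower-intensity arrays alone the Lkb1 comparison gave -1.03 for Ahr, -0.41 for Irf4, -1.46 for Prdm1 and 0.43 for Tbx21, and the Tgfbr2 comparison gave -2.07 for Ahr. Between the 2 higher-intensity arrays of the Lkb1 comparison, 1 against 1, the difference was -2.48 for Ahr, -0.60 for Irf4, -0.26 for Prdm1 and 0.62 for Tbx21. Ahr on Foxp3Cre/+Lkb1f/f replicate 3 was at 0.11, under that array's limit of 0.13, so its level there is only a bound. In each deletion genotype Ahr exceeded its limit on 2 of 3 arrays. These 4 genes were named after their values were seen.

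Receptor chains for the 10 cytokines were found in part. Of 16 measured, 7 exceeded the limit on all 12 arrays, 5 on some and 4 on none. The IL-2 receptor chains Il2ra (5.82 to 6.40) and Il2rb (6.05 to 6.53) were high on every array, in cells whose Il2 was at background. Il4ra, shared by IL-4 and IL-13 signalling, lay between 4.21 and 5.14, Il21r between 3.25 and 4.29, Il17ra between 2.41 and 3.95, and Il10rb, a chain of the IL-22 receptor, between 3.63 and 4.51. No receptor passed the test in either comparison, and none was separated on every array. The median difference was -0.04 in the Lkb1 comparison and -0.01 in the Tgfbr2 comparison.

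Other cytokines that T cells make were above background in larger number. Of 23 measured, 7 exceeded the limit on all 12 arrays, 11 on some and 5 on none. Ltb, a membrane-bound lymphotoxin chain, lay between 5.09 and 6.53, Tgfb1 between 4.14 and 4.77, Ccl5 between 2.71 and 5.01, Tnfsf8 (CD30 ligand) between 1.69 and 3.62, Tnf between 1.55 and 2.64, and Lta between 0.93 and 2.05. None of the 23 passed limma's test. Ifng was the single one lower on every Foxp3Cre/+Lkb1f/f array, as were 2.05% of all clusters. It averaged -0.06 ± 0.23 there, under the limit on all 3 arrays, and 0.76 ± 0.51 in Foxp3Cre/+, above it on all 3 (SD, n = 3 each, limma's unadjusted p = 0.0254, adjusted p = 1.00). The difference of measured values was -1.07 on the lower-intensity arrays alone and -0.30 between the 2 higher-intensity arrays. As no Foxp3Cre/+Lkb1f/f array exceeded its limit for Ifng, the level there is only a bound and no fold can be given. With those arrays set to their limits their mean would be 0.55, beside 0.76 in Foxp3Cre/+. In the Tgfbr2 comparison Tnfsf11 and Xcl1 were lower and Fasl higher on every Foxp3CreTgfbr2 f/f array, with means of 1.12, 0.39 and 1.47 in Foxp3CreTgfbr2 f/f and 1.40, 1.05 and 1.16 in Foxp3Cre. Of all clusters 2.13% were lower and 2.81% higher on every array in this way. These separations, that of Ifng included, are those under the labels as given. On the lower-intensity arrays alone the differences were -0.31 for Tnfsf11, -0.62 for Xcl1 and 0.36 for Fasl. Ifng and these 3 genes were named after their values were seen.

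**Figure D4:**
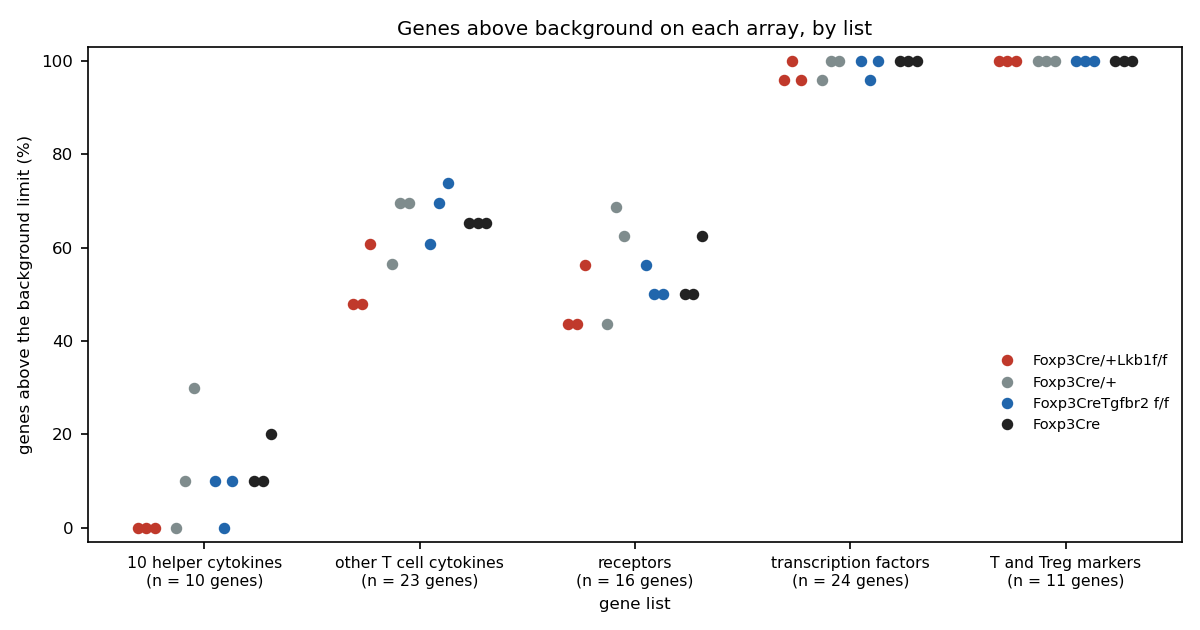
The percentage of measured genes above the background limit (vertical axis) on each array, coloured by labelled genotype, for the 10 helper cytokines, 23 other T cell cytokines, 16 receptors, 24 transcription factors and 11 T and Treg markers. Between 0 and 3 of the 10 helper cytokines exceeded the limit on an array, against 11 to 17 of the other T cell cytokines, 7 to 11 of the receptors, 23 or 24 of the transcription factors and all 11 T and Treg markers.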

How the data were processed

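RNA of sorted Treg cells was profiled on 12 arrays, each mapped to its genotype and replicate from its labels. The authors analysed them with Agilent GeneSpring and deposited log2 values of 41345 transcript clusters, between 1.94 and 14.0. The summarization of probes and the normalization between arrays are not described in the methods or labels. Each array's median was subtracted. Symbols came from the platform annotation (23521 clusters with 1 symbol, 1820 with several, 16004 with none). Listed genes without such a cluster, such as Il2rg, Areg and Lck, were not analysed here. Each deletion was compared with its control over 6 arrays with limma 3.58.1 (lmFit, eBayes, no covariate, no filter), adjusted by Benjamini-Hochberg over all clusters at 0.05, and by two-sided exact permutation tests. Precision is limited by the number of arrays. The cytokines and gene lists were chosen with earlier results of these data known. Of each list at most 6 genes with the highest mean were named, except where stated. No cytokine exceeded the limit on 6 or more arrays, so no genes of like pattern were sought.

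Whether replicate numbers mark pairs was checked by correlating deviations from group means. Same-numbered arrays of the Lkb1 comparison had r of 0.39, 0.30 and 0.74, the last between the higher-intensity arrays, and those of the Tgfbr2 comparison -0.52, 0.23 and -0.57. Different-numbered arrays of the same intensity set had r of 0.11 and 0.45 in the Lkb1 comparison and 0.31 to 0.72 in the Tgfbr2 comparison. Every pair from different intensity sets had a negative r. The sign of r thus followed the intensity set, and pairing by number was not shown. The fit with a replicate block was an alternative, beside values as deposited, quantile normalization, the intensity set as a block, lower-intensity arrays alone, all arrays in one model, a trend and robust prior, a filter on low level, the methods' t-test, other limits and leaving out each array. P-values measure the spread between these arrays. The fits were tested on simulated data with independent normal values. These held no intensity sets and no arrays in doubt as to their labels, so that test does not cover such features.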

Additional observations from a re-analysis of the deposited data

How the results depend on the processing

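No cytokine and no transcript cluster passed the adjusted threshold in any comparison under any alternative run, the replicate block included (0 clusters). With the replicate block, Il4 in the Lkb1 comparison differed by -0.55 (limma's unadjusted p = 0.00751, adjusted p = 0.999), and the block changed no call. Over its 14 alternatives that difference lay between -0.68 and -0.43, with adjusted p between 0.96 and 1.00. The filter on low level removed all 3 of Il4, Il13 and Il17f from the test. How many cytokines count as above background depended on the limit. At the 90th percentile of the receptors 35 of the 120 values, 5 cytokines, and 3 cytokines on all arrays of a genotype exceeded it. At the 99th percentile, and with 129 clusters of keratin-associated, taste receptor and beta-defensin genes as background, the counts were 0 values and 0 cytokines. On the 8 lower-intensity arrays alone, chosen after seeing the data, 4 values of 1 cytokine (Il4) exceeded it, and 1 cytokine did so on all arrays of a genotype (Il4 in Foxp3Cre, 2 arrays). Small differences turned sign when 1 array was left out, with a range of -0.15 to 0.00 (0.0032) for Il13 and -0.17 to 0.19 for Il17f in the Lkb1 comparison, -0.16 to 0.0179 for Il13 in the Tgfbr2 comparison, and -0.0829 to 0.11 for Il13 in the difference between the deletions. The cause was not tested. Il17f turned sign without Foxp3Cre/+Lkb1f/f replicate 2 (-0.17). Il13 did so without Foxp3Cre/+Lkb1f/f replicate 3 (0.0032) in the Lkb1 comparison, and without Foxp3CreTgfbr2 f/f replicate 2 (0.01) or Foxp3Cre replicate 3 (0.0179) in the Tgfbr2 comparison. Leaving out each array moved the Il4 difference of the Tgfbr2 comparison between -0.41 and -0.02. The second transcript cluster of Csf2 averaged lower in all 4 genotypes by more than the SD of the first, and both were at background.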
